A study of Mus musculus with 61 samples.

Results

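Mitosis and chromosome segregation genes were followed in mouse CD4 T cells that were stimulated with or without IL-27. The set was defined by name, as 48 listed genes, and 46 of them had a probe set that the platform tables assign to that gene alone; Ccnb1 and Cdca8 were not analysed here. They are 46 of 12291 genes with such a probe set. Each gene was read from its brightest probe set by mean intensity over the HT_MG-430A arrays, and 24 of the 46 had 2 or more probe sets.

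The series holds 61 Affymetrix arrays of RNA from naive CD4 T cells of C57BL/6 mice. A control arm (ctrl) and an arm given the cytokine IL-27 (IL27) each had 26 HT_MG-430A arrays, which cover 18 times between 0.5 and 72 h; 8 of these times have 2 arrays in each arm and 10 have 1. A further 9 Mouse430A_2 arrays held ctrl at 0 h, both arms at 4, 16 and 48 h, and a pair of 48 h arrays titled GFPP and GFPN, which the labels do not explain. One culture text (antibodies to CD3 and, as written, CD8, each at 1 µg/ml, with IL-27 at 25 ng/ml) stands with all samples, ctrl at 0 h among them, so what the ctrl cells received is not stated apart from their titles. The title of the series places the cultures in differentiation of type 1 regulatory (Tr1) cells, and the labels name the source of every sample as Tr1 cells made in vitro with IL-27. Times are bare numbers in the labels and are read as hours. Some titles carry a suffix d that is not explained, and the second array at each of the 8 times has it. The labels name no separate cultures or animals behind the arrays, and the p-values therefore reflect only how these arrays spread, which may be technical.

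A resting T cell is out of the cell cycle. Once activated it grows, copies its DNA and then divides, and each step draws on its own set of gene products. In mitosis, cyclin-dependent kinase 1 with cyclins A and B drives entry, condensins compact the chromosomes, kinetochores attach them to a spindle built by kinesins and other microtubule proteins, and the spindle checkpoint holds the cell until every chromosome is attached. The anaphase-promoting complex then marks securin and cyclin B for destruction, sister chromatids part, and cytokinesis separates the daughter cells. Many of these genes are known to be transcribed late in the cycle, after the genes of DNA replication.

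The median intensity of an array was 28.0 to 36.6 for HT_MG-430A and 70.7 to 78.9 for Mouse430A_2, and precision is limited by how many arrays there are. The ctrl array at 12 h stood apart: its highest correlation with any other array over all genes was 0.871, against at least 0.977 for each other array. T cell genes (Cd3d, Cd3e, Cd3g, Cd4, Cd28, Cd5) were well above the array medians, with Cd3d at 1900 to 5910 and Cd4 at 129 to 769. Cd8a stayed at 9.53 to 20.4, Cd79a at 10.2 to 29.2, Itgam at 9.50 to 17.7, Ncr1 at 11.4 to 17.4 and Hba-a1 at 9.20 to 17.0, which are near background. Of the other markers, Ighm (380 to 3470) and Cd8b1 (44.3 to 313) were above the array median on every HT_MG-430A array. Nkg7 (17.6 to 3380) reached high values on some arrays. Lyz2 (up to 255), Klrk1 (up to 159), Cd79b (up to 120) and Ms4a1 (up to 106) were above the array medians on some. In bulk RNA, fewer cells of a type and less RNA per cell cannot be told apart.

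The mitosis genes were low for the first 14 h of culture and were high in both arms from 25 h on. Up to 14 h, 13 to 23 of the 46 lay above the median of their own array. At 16 and 18 h the number was 27 to 36, at 20 h 39 to 44, and from 25 h on all 46 lay above it on every array. The median intensity over the 46 genes in ctrl was 19.5 to 33.0 up to 14 h, 48.9 to 59.4 at 16 and 18 h, 212 and 101 on the 2 arrays at 20 h, and 523 at 25 h. From 30 h to 72 h it stayed between 571 and 728 in ctrl. In the IL27 arm it was 172 and 69.5 at 20 h, 482 at 25 h and 460 to 663 later. The lowest of these late values was that of the IL27 array of suffix d at 72 h.

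**Figure D1:**
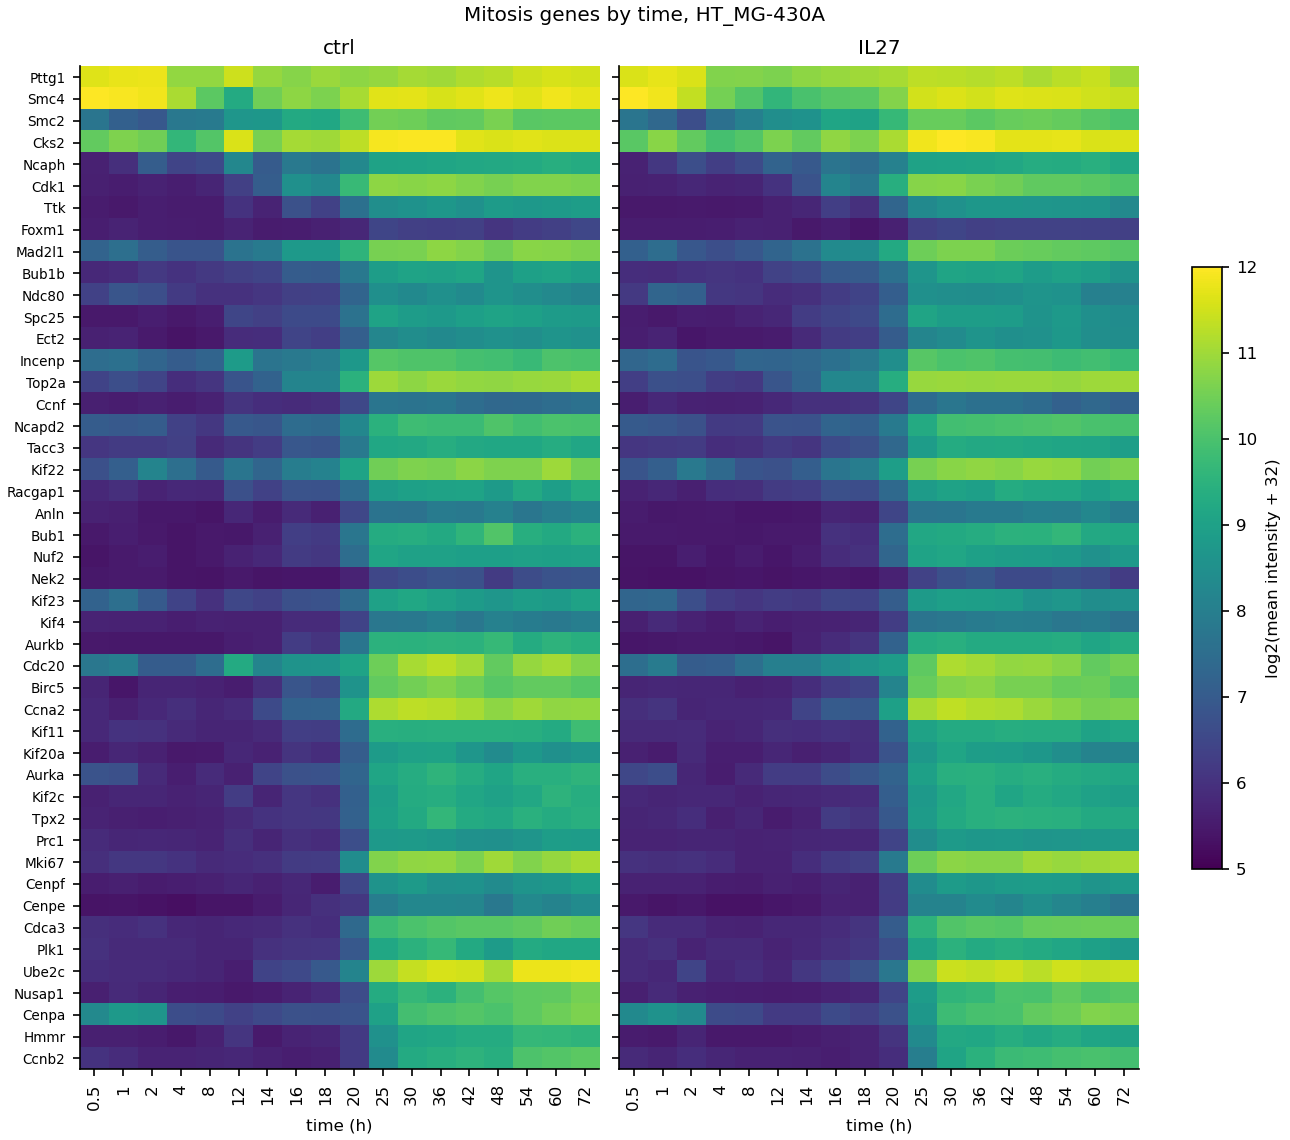
Mean intensity of the 46 genes at each of 18 times in the ctrl arm (left) and the IL27 arm (right), as log2(mean intensity + 32), genes as rows ordered by the share of their 25 to 36 h level reached at 20 h in ctrl, highest at the top. In both panels most genes brighten by degrees between 16 and 25 h. Pttg1, Smc4 and Cks2 are bright from the start, and Cenpa is bright at 0.5 to 2 h.

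The rise was tested between windows of time in each arm with limma on log2(intensity + 32). A gene was called where p adjusted by Benjamini-Hochberg over all 7164 genes tested was under 0.05. All 46 members were among the genes tested. In ctrl cells from 0.5 to 4 h (n = 5 arrays) to 14 to 20 h (n = 6), 35 members rose and 3 fell, with a median difference of 0.72. That window changed most of the transcriptome, with 71.7% of all genes tested called in either direction, and the median of all genes was 0.07. From 14 to 20 h to 25 to 36 h (n = 4), 45 of the 46 members rose and none fell, with a median of 2.29, where 7.12% of all genes tested were called higher and their median was -0.05. The one not called was Pttg1, securin, the inhibitor of separase, which is the enzyme that lets sister chromatids part at anaphase. In the IL27 arm, 29 members rose and 3 fell over the first interval (70.9% of all genes in either direction; member median 0.59), and 45 rose over the second (7.44% of all genes; member median 2.45). The 2 intervals share the arrays of 14 to 20 h. Of 49 DNA replication genes in ctrl, 44 rose and 1 fell over the first interval (median 1.87) and 18 rose and 1 fell over the second (median 0.46). Of 69 further mitosis genes, 43 rose and 6 fell over the first (median 0.51) and 43 rose over the second (median 0.71).

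Over the first interval the 6 smallest adjusted p in ctrl belonged to Smc2, Cdk1, Mad2l1, Top2a, Bub1b and Racgap1. Smc2, an ATPase subunit of condensin, measured 180, 109, 85.4, 96.3 and 192 in ctrl at 0.5 to 4 h and 388 to 1014 (median 587) at 14 to 20 h, so the groups did not overlap (log2 difference 2.03 ± 0.21 SE, adjusted p = 2.95e-11). Cdk1, the kinase of mitotic entry, measured 15.5 to 19.7 on the 5 early ctrl arrays and 102 to 1158 (median 341) at 14 to 20 h (2.94 ± 0.31, adjusted p = 3.68e-11). The order of its ctrl values within that window was 102 at 14 h, 258 and 404 at 16 h, 277 at 18 h, and 1158 and 459 at 20 h.

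Mad2l1, the checkpoint protein that binds and inhibits Cdc20, measured 119, 156, 118, 86.0 and 80.2 in the early ctrl arrays and 198 to 945 (median 421) later (1.70 ± 0.23, adjusted p = 1.27e-08). Top2a, the topoisomerase that untangles sister chromatids, went from 28.0 to 70.1 early to 116 to 934 (median 272; 2.02 ± 0.28, adjusted p = 2.66e-08). Bub1b, another checkpoint component, had 24.4 to 44.5 early and 55.0 to 217 later (median 103; 1.18 ± 0.18, adjusted p = 1.29e-07). Racgap1, which forms the complex that positions the cleavage furrow with Kif23, had 19.2 to 29.4 early and 50.4 to 192 later (median 78.9; 1.14 ± 0.18, adjusted p = 2.81e-07). Each of these 4 genes was higher on all 6 arrays of 14 to 20 h than on all 5 early arrays. These genes were picked by their small adjusted p. The share of all genes so separated is not given here, for this or the later intervals. In the IL27 arm the same 6 genes had the smallest adjusted p among those that rose, with differences of 2.01 ± 0.21 (Smc2), 2.50 ± 0.31 (Cdk1), 1.495 ± 0.23 (Mad2l1), 1.88 ± 0.28 (Top2a), 1.11 ± 0.18 (Bub1b) and 1.12 ± 0.18 (Racgap1).

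The genes that fell over this interval were the same in both arms: Cenpa, Pttg1 and Smc4. Cenpa, the histone variant that marks centromeres, measured 285 (0.5 h), 410 (1 h), 466 and 271 (2 h) and 69.4 (4 h) in ctrl, then 60.5 to 88.7 (median 70.4) at 14 to 20 h (-1.48 ± 0.28, adjusted p = 7.61e-06; IL27 arm -1.47 ± 0.28). It had reached that low level by 4 h, and it was high again at 483 at 25 h and at 816 and 1037 at 30 h. Smc4, the partner of Smc2 in condensin, measured 4524, 3847, 4238, 3148 and 2167 in ctrl at 0.5 to 4 h, 1389 to 2585 (median 1677) at 14 to 20 h, and 3239, 3259, 3392 and 3010 at 25 to 36 h (first interval -0.98 ± 0.20, adjusted p = 3.85e-05; second 0.87 ± 0.22, adjusted p = 0.00406). Its lowest ctrl value, 587, was on the 12 h array that stood apart. Pttg1 measured 3206, 3436, 3420, 3588 and 1846 early and 1556 to 1937 (median 1795) at 14 to 20 h in ctrl (-0.76 ± 0.14, adjusted p = 8.93e-06; IL27 arm -0.47 ± 0.14). All 3 lay well above the array median at 0.5 to 2 h, when most of the others did not, and for each the 4 h ctrl array was below all those of 0.5 to 2 h.

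For the step between 14 to 20 h and 25 to 36 h the 6 smallest adjusted p in ctrl belonged to Hmmr, Nusap1, Ccnb2, Plk1, Prc1 and Cenpe. Hmmr, a spindle microtubule protein, measured 13.6 to 62.9 (median 21.1) at 14 to 20 h and 337, 526, 516 and 548 at 25 to 36 h (3.16 ± 0.16, adjusted p = 2.52e-19). Nusap1, which bundles spindle microtubules near chromosomes, went from 13.9 to 98.6 (median 23.1) to 601, 767, 779 and 696 (3.55 ± 0.19, adjusted p = 5.47e-19). Ccnb2, cyclin B2, went from 14.7 to 48.1 (median 18.4) to 299, 574, 612 and 638 (3.27 ± 0.19, adjusted p = 2.56e-18). All 4 later arrays exceeded all 6 earlier ones for each of these genes, which were picked by their small adjusted p.

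Plk1, the polo-like kinase active from entry to cytokinesis, went from 26.3 to 114 (median 40.4) to 539, 783, 588 and 792 (3.11 ± 0.18, adjusted p = 2.56e-18). Prc1, which crosslinks microtubules in the anaphase midzone, went from 20.7 to 87.0 (median 31.5) to 410, 439, 391 and 385 (2.63 ± 0.15, adjusted p = 5e-18). Cenpe, the kinesin of the kinetochore, went from 14.5 to 49.7 (median 25.5) to 217, 210, 329 and 268 (2.29 ± 0.14, adjusted p = 1.79e-17). The same 6 genes led the step in the IL27 arm, with 3.24 ± 0.16 for Hmmr, 3.52 ± 0.19 for Nusap1, 3.20 ± 0.19 for Ccnb2, 3.14 ± 0.18 for Plk1, 2.71 ± 0.15 for Prc1 and 2.38 ± 0.14 for Cenpe. The largest differences in ctrl were those of Ube2c, the ubiquitin-conjugating enzyme of the anaphase-promoting complex (4.23 ± 0.29), and Mki67, which coats mitotic chromosomes (3.96 ± 0.34).

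By role group in ctrl, the median difference over this step ran from 1.68 for the 6 chromosome structure genes to 2.93 for the 3 chromosomal passenger genes, and every member of each group was called higher except Pttg1 among the 3 anaphase genes. Birc5, survivin, the brightest of the passenger complex that corrects attachments, went from 29.2 to 531 (median 83.4) to 1244, 1329, 1499 and 1603 (3.31 ± 0.35, adjusted p = 7.52e-10). Aurka, the spindle pole kinase, went from 54.0 to 143 (median 75.9) to 524, 668, 570 and 720 (2.47 ± 0.21, adjusted p = 6.76e-13). Kif22, a kinesin that pushes chromosome arms, went from 123 to 586 (median 245) to 1396, 1341, 1805 and 1518 (2.35 ± 0.32, adjusted p = 3.03e-07). Racgap1 went on to 423, 487, 455 and 488 (2.02 ± 0.19, adjusted p = 2.43e-11).

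Cks2, a small subunit that binds cyclin-dependent kinases, was high from the start, at 1233, 1574, 1270, 1546 and 766 in ctrl at 0.5 to 4 h, and had 1488 to 2535 (median 2136) at 14 to 20 h and 3786, 3705, 4129 and 3962 at 25 to 36 h (second interval 0.89 ± 0.19, adjusted p = 0.000792). Mad2l1 reached 1494, 1582, 1431 and 1767 (1.79 ± 0.24, adjusted p = 3.3e-07), and Cenpa 483, 816, 1037 and 1023 (3.002 ± 0.29, adjusted p = 8.57e-11). Of the genes with 2 or more probe sets, 3 of 24 (Cdca3, Pttg1 and Top2a) had probe sets of opposite sign over this step.

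**Figure D2:**
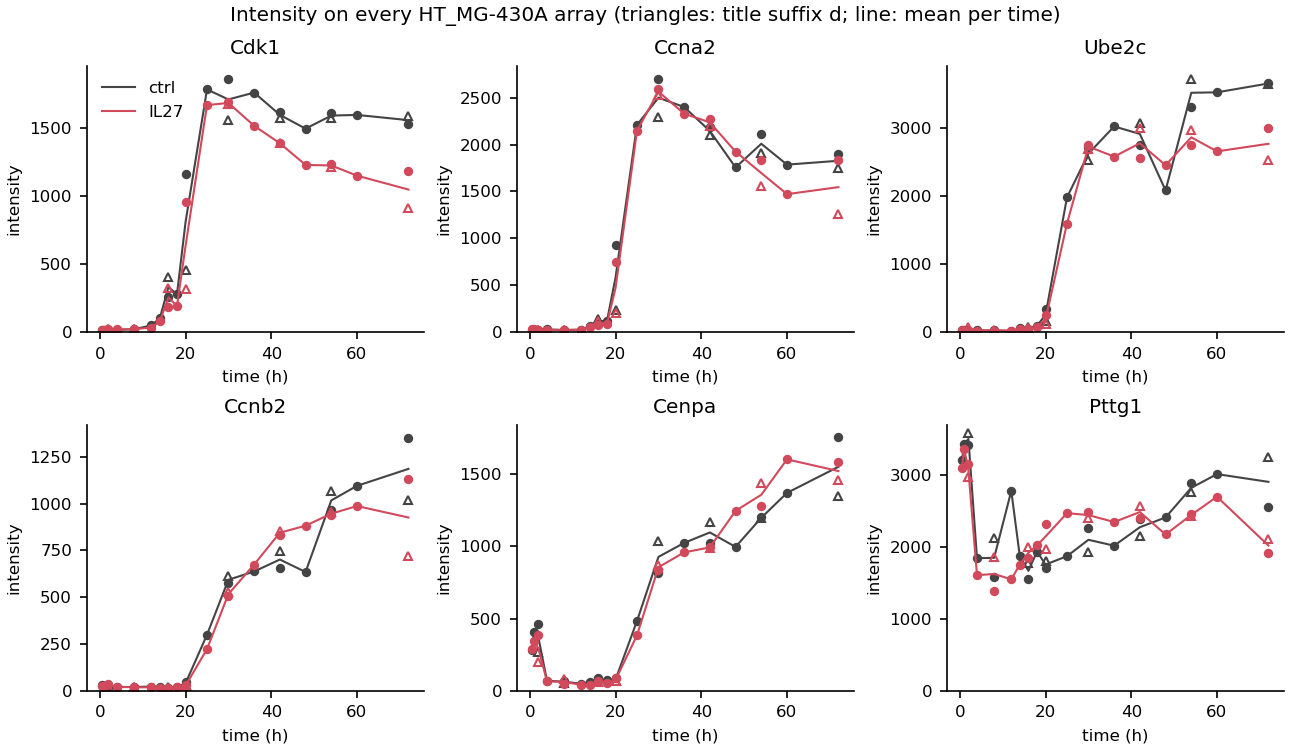
Intensity of 6 genes on every HT_MG-430A array against time in hours, ctrl in dark grey and IL27 in red, filled circles for arrays without and open triangles for arrays with the title suffix d, lines joining the mean of each time. Cdk1, Ccna2 and Ube2c climb between 16 and 30 h, Ccnb2 and Cenpa in ctrl are highest at 72 h, and Pttg1 starts near its highest level.

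The genes did not all reach their later level at the same pace. As a description, each gene's level was set against its own mean over 25, 30 and 36 h. At 20 h the 46 genes stood at a median of 29.4% of that level in ctrl (quartiles 19.0% and 37.5%) and 25.1% in the IL27 arm, while the 49 DNA replication genes of a second list stood at 90.4% (quartiles 81.6% and 106%) and 86.6%. At 14 to 18 h the medians were 11.3% for mitosis and 59.1% for replication genes in ctrl. In ctrl 41 of the 46 members first came to 50% of that level at 25 h, counting from 8 h on, and 1 of the 49 replication genes did so as late. In the IL27 arm the number was also 41 of 46, with 2 replication genes as late.

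Within the set, Ccnb2 (7.97%), Hmmr (8.88%), Cenpa (9.70%), Nusap1 (9.82%) and Ube2c (9.98%) had the lowest share at 20 h in ctrl. Smc4 (66.4%), Smc2 (65.5%), Cks2 (64.3%) and Ncaph (54.9%), 3 of them condensin subunits, had the highest after Pttg1 (87.9%), and Cdk1 (46.2%), Ttk (45.7%) and Mad2l1 (45.3%) came next with the transcription factor gene Foxm1 (45.6%). Foxm1 itself stayed dim, at 42.3 to 55.5 at 25 to 36 h. The ratio of the 25 to 36 h level to that of 0.5 to 4 h had a median of 18.8 in ctrl, and was highest for Cdk1 (102), Ccna2 (101) and Ube2c (96.7), whose early levels were below the array medians, so that these ratios depend on the background of the arrays. It was under 1 for Smc4 (0.897) and Pttg1 (0.666).

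The 2 arrays at 20 h differed from each other in these genes. The array of suffix d was lower in 43 of the 46 genes in ctrl, with a median log2 difference of -0.65, and in all 46 in the IL27 arm, with -0.75, where the median over all genes tested was 0.03 and -0.01. Thus the share reached at 20 h is the mean of 2 unlike arrays in each arm. At 16 h the arrays of suffix d were the higher ones, by a median of 0.14 in ctrl and 0.17 in the IL27 arm.

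After 36 h few mitosis genes changed in ctrl, while 14 of the 49 replication genes fell. At 60 and 72 h the members stood at a median of 108% of their 25 to 36 h level in ctrl and 91.8% in the IL27 arm, against 69.8% and 56.0% for the replication genes. From 25 to 36 h to 60 to 72 h (n = 3), 4 members rose in ctrl and none fell, with 19.5% of all genes tested called higher. They were Ccnb2, Nusap1, Hmmr and Pttg1. Ccnb2 had 1095, 1353 and 1018 at 60, 72 and 72 h (1.12 ± 0.22, adjusted p = 0.000115), Nusap1 1219, 1598 and 1288 (0.91 ± 0.23, adjusted p = 0.00153), Hmmr 768, 750 and 678 (0.59 ± 0.19, adjusted p = 0.0145) and Pttg1 3015, 2560 and 3254 (0.53 ± 0.18, adjusted p = 0.0186). For each, all 3 late arrays were above all 4 arrays of 25 to 36 h. The share of all genes with that order is not given here, nor the share called in fits without some arrays. Without the 72 h arrays 1 member was called, and without those of 25 h or of suffix d 2 were.

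In the IL27 arm over the same interval 3 members rose and 5 fell, with 25.0% of all genes tested called higher and 25.7% called lower. Those that rose were Ccnb2 (987, 1134 and 718; 1.00 ± 0.22, adjusted p = 0.000238), Nusap1 (1054, 1248 and 1007; 0.71 ± 0.23, adjusted p = 0.00775) and Cenpa (1601, 1585 and 1455; 1.06 ± 0.35, adjusted p = 0.00985). Those that fell were Kif20a (-0.86 ± 0.26, adjusted p = 0.00494), Ccnf (-0.40 ± 0.15, adjusted p = 0.0208), Nek2 (-0.31 ± 0.13, adjusted p = 0.0402), Cenpe (-0.39 ± 0.16, adjusted p = 0.0414) and Plk1 (-0.49 ± 0.21, adjusted p = 0.048). Kif20a, the kinesin of late mitosis and cytokinesis, went from 391, 543, 511 and 449 to 247, 328 and 180, and the groups did not overlap. Without the 72 h arrays 1 member was called, without those of 30 h 3, without those of suffix d 2, and without those of 25 h or 36 h 5. The share of all genes called without these arrays is not given here. Of the 49 replication genes, 14 fell in ctrl and 34 in the IL27 arm over this interval, and none rose in either.

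**Figure D3:**
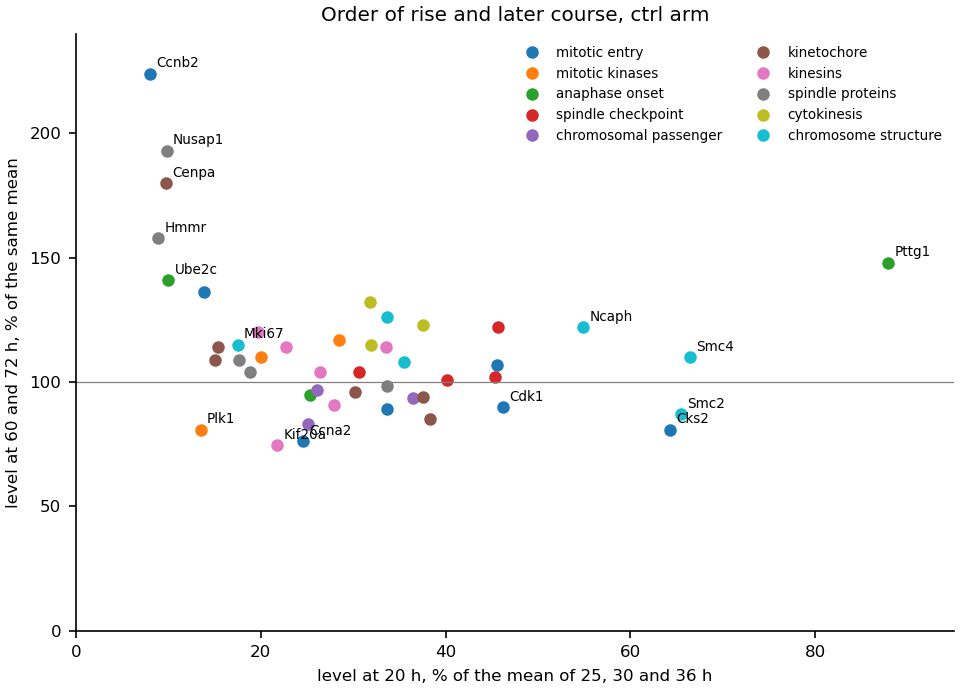
Each point is 1 of the 46 genes in the ctrl arm, coloured by role: the level at 20 h (horizontal) and the mean of 60 and 72 h (vertical), both as a percentage of the gene's mean over 25, 30 and 36 h. Ccnb2, Nusap1, Cenpa, Hmmr and Ube2c lie at upper left, at 9.98% or less at 20 h and at 141% or more at the end, while Cks2 and Smc2 lie further right, at 80.9% and 87.1% at the end.

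Since the members moved together over the step to 25 h, their promoters were read for 3 motifs tied in the literature to cell cycle transcription. RefSeq promoters of the build GRCm38.p6, taken as the 250 bases before each gene's start, were matched to 39 of the 46 genes (41 promoters). The cell cycle homology region, searched as TTTGAA or TTCGAA on both strands, was present in 39.0% of the member promoters and in 17.1% of all 32851 promoters of the same length. The CCAAT box (CCAAT, both strands) was present in 75.6% against 33.8%, and at 2 or more places in 51.2% against 10.1%. An E2F site (TTTGGCGC or TTTCGCGC, both strands) was present in 4.88% against 0.654%, but the first share is only 2 of the 41 promoters. In promoters of the replication genes the shares were 16.3%, 53.1% and 12.2%. No match of one motif overlapped one of another in the member promoters. A match is a description of the letters, not a site shown to be bound.

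The 4 promoters printed here belong to the members with the smallest adjusted p for the step to 25 h in ctrl among those holding the first motif, and they show the arrangement of motif copies; capitals mark every copy of the homology motif and of the CCAAT box on either strand, and each is written 5′ to 3′ on the gene's own strand. They lie at chr9:70421555-70421804 on the minus strand (Ccnb2), chr7:80294226-80294475 on the plus strand (Prc1), chr2:164769679-164769928 on the plus strand (Ube2c) and chr17:24251410-24251659 on the minus strand (Ccnf). In Ube2c a CCAAT and its reverse complement overlap.
Ccnb2: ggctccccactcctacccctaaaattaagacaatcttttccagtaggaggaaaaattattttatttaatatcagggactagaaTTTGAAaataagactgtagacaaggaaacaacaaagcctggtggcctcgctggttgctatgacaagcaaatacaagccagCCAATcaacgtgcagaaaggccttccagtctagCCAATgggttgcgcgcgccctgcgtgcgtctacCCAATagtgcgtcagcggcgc
Prc1: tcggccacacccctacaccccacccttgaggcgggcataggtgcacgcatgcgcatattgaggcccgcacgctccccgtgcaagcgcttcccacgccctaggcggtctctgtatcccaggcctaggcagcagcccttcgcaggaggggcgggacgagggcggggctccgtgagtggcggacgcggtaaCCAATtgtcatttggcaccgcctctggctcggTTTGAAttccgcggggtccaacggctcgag
Ube2c: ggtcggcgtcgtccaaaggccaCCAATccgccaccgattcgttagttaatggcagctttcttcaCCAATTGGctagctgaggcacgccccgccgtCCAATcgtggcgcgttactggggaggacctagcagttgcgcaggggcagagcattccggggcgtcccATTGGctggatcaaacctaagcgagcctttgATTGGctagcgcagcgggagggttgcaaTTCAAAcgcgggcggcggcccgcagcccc
Ccnf: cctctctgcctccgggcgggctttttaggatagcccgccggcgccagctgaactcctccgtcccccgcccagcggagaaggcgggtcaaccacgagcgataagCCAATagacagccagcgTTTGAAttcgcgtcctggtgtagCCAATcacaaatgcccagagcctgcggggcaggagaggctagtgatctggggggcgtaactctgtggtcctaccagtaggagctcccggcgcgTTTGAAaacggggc

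Prc1 and Ube2c each hold the homology motif close to the start, at 30 to 25 and 29 to 24 bases before it, and Ccnf has 1 of its 2 copies at 14 to 9 bases. In Ccnb2 the copy lies 167 to 162 bases before the start, and all 3 of its CCAAT boxes lie between it and the start. Ube2c holds 6 CCAAT matches, Ccnf 2 and Prc1 1. The values of these 4 genes over the step are not alike in size: 4.23 for Ube2c, 3.27 for Ccnb2, 2.63 for Prc1 and 1.59 for Ccnf.

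The question of the design is what IL-27 adds. At 0.5 to 4 h no member was called (2.33% of all genes tested were called in either direction), the median difference of IL27 minus ctrl over the 46 genes was -0.03, and 1 member had an unadjusted p under 0.05. In the middle window of 8 to 20 h (n = 9 per arm), 2 members were lower in the IL27 arm and none higher, with 5.86% of all genes tested called lower. These were Cks2 (-0.26 ± 0.07, adjusted p = 0.0109) and Smc4 (-0.32 ± 0.10, adjusted p = 0.0463). The difference was below 0 for 43 of the 46 genes, with a median of -0.14 against -0.02 for all genes. The replication genes had 2 of 49 called lower and none higher (median -0.10), and 69 further mitosis genes had 7 called lower and none higher (median -0.06).

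Cks2 in the middle window had 1000 to 3087 (median 2000) in ctrl and 1043 to 2379 (median 1549) in the IL27 arm, so the groups overlapped. Its highest ctrl value was that of the 12 h array that stood apart, and without that array the difference was -0.17 with an adjusted p of 0.0573, which leaves 1 member called. Smc4 in turn was not called in this window without the arrays of 14, 16, 18 or 20 h (adjusted p = 0.0916, 0.249, 0.0872 and 0.104). Smc4 had 1389, 1801, 1698, 1537, 2585 and 1655 in ctrl at 14, 16, 16, 18, 20 and 20 h, and 978, 1133, 1116, 1148, 1868 and 1396 in the IL27 arm. It was lower with IL-27 at each of these 4 times. It was the one member called at 14 to 20 h (-0.48 ± 0.12, adjusted p = 0.00996; 3.52% of all genes tested called lower), and without the 16 h arrays it was -0.40 with an adjusted p of 0.221.

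At 14 to 20 h, 42 of the 46 differences were below 0 (median -0.15, all genes -0.02). The 4 spindle checkpoint genes had a median of -0.31 and the 3 passenger genes one of -0.30, the 6 kinesins -0.20 and the 6 chromosome structure genes -0.17, and apart from Smc4 none of them passed the test. Nearest to passing by limma were Tacc3 (-0.30 ± 0.10, adjusted p = 0.0646), Mad2l1 (-0.33 ± 0.12, adjusted p = 0.0875) and Ncapd2 (-0.26 ± 0.09, adjusted p = 0.0934). Cdk1 was further from it at -0.37 ± 0.16 (adjusted p = 0.23). At single times, 35 of 46 genes were lower with IL-27 at 14 h, 40 at 16 h, 32 at 18 h, 44 at 20 h and 37 at 25 h. Of all genes tested, 55.4%, 56.0%, 55.9%, 58.3% and 47.2% were lower at these times. The medians of the members were -0.08, -0.14, -0.10, -0.24 and -0.13, and those of all genes lay between -0.03 and 0.01. The counts of members called depend on single arrays of 20 h, whose 2 arrays per arm differ. Without the IL27 array that has no suffix 9 were called, and without the ctrl array of suffix d 4. Without the 20 h arrays, or without those of 12 h, 2 were called. The share of all genes called in these fits is not given here. On the arrays of 14 to 20 h the CD8 T cell genes summed to 136 to 158 in ctrl and 55.6 to 83.1 in the IL27 arm (Cd8a near background on all), and the NK cell genes, Ncr1 near background, to 94.0 to 225 and 213 to 578; their part in these differences was not tested.

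At 8 to 12 h (n = 3 per arm) the one member called was Pttg1, lower at -0.40 ± 0.12 (adjusted p = 0.0288; 3.82% of all genes tested called lower). Its values were 1580, 2120 and 2780 in ctrl and 1389, 1862 and 1551 in the IL27 arm, of which the third of each is the 12 h array. The difference was -0.18 at 8 h and -0.83 at 12 h. The ctrl array of 12 h is the one that stood apart, and no result without it is given for this window.

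Between 25 and 54 h the fit with all arrays called no member. This held at 25 to 36 h (n = 4 per arm; 3.62% of all genes called in either direction) and at 42 to 54 h (n = 5 per arm; 8.75%), by limma with 1 member at an unadjusted p under 0.05 in each window. Without the arrays of suffix d, 1 member was called higher and 1 lower at 42 to 54 h, and the share of all genes called in that fit is not given here. The medians were -0.03 and 0.04, and 29 members were below 0 in the first window against 17 in the second. At the single times of 25 to 54 h, 45.7% to 57.9% of all genes tested were lower with IL-27. At 42 to 54 h every IL27 array lay below every ctrl array for Cdk1 and Mad2l1, 2 of the 46, while 4.05% of all genes tested had that order, a like share. Mad2l1 measured 1610, 1635, 1406, 1582 and 1811 in ctrl and 1357, 1323, 1304, 1307 and 1161 in the IL27 arm (-0.31 ± 0.13, adjusted p = 0.151). Cdk1 measured 1617, 1572, 1493, 1607 and 1571 against 1386, 1386, 1227, 1233 and 1213 (-0.28 ± 0.18, adjusted p = 0.448).

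Over the whole late window of 25 to 72 h (n = 12 per arm), 2 members were lower with IL-27 and none higher, where 9.76% of all genes tested were called lower. These were Mad2l1 (-0.27 ± 0.08, adjusted p = 0.0234), with 1406 to 1811 (median 1596) in ctrl against 1112 to 1550 (median 1315), and Kif23, the motor of the central spindle (-0.22 ± 0.08, adjusted p = 0.0491), with 381 to 578 (median 447) against 278 to 478 (median 400). The arms overlapped for both. The 2 dimmer probe sets of Kif23 had -0.11 and 0.004 in this window, at mean intensities of 34.6 and 13.1. With the mean of all its probe sets Kif23 was not called (-0.11, adjusted p = 0.076 by limma). Mad2l1 was lower with IL-27 at 7 of the 8 late times, all but 30 h, and Kif23 at 7 of 8, all but 42 h. The median of the 46 was -0.08 and 33 were below 0. At the 8 late times, 45.7% to 57.9% of all genes tested were lower with IL-27. Without the 54 h, 60 h or 72 h arrays no member was called, and without those of 25 h or 36 h 1 was. The share of all genes called in these fits is not given. The difference between the late and the early effect called no member (7.09% of all genes called in either direction; 1 member at an unadjusted p under 0.05 by limma).

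**Figure D4:**
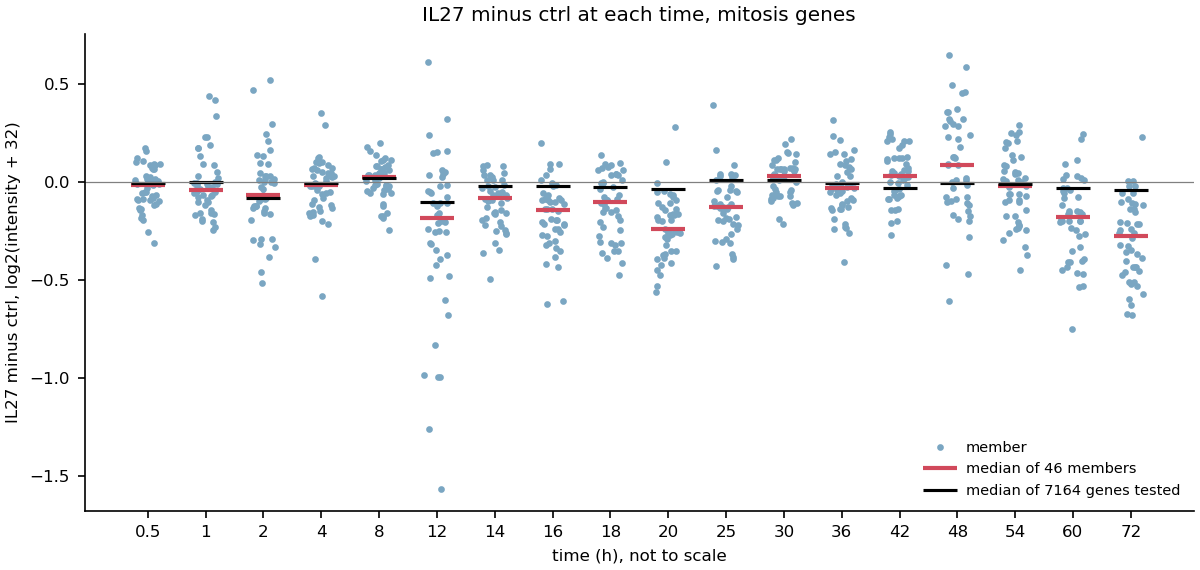
IL27 minus ctrl of log2(intensity + 32) at each of 18 times (horizontal, not to scale), 1 point per gene, red bars for the median of the 46 genes and black bars for the median of the 7164 genes tested. The red bar lies above the black one at 2, 8, 30, 42 and 48 h and below it at all other times. The widest scatter is at 12 h, where the ctrl array stood apart.

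At the end of the course some of the mitosis genes were lower with IL-27. At 60 to 72 h (n = 3 per arm), 9 of 46 members were called lower and none higher, where 10.5% of all genes tested were called lower, a smaller share than 9 of 46. The difference was below 0 for 43 of the 46, with a median of -0.27 against -0.04 for all genes. The 9 were Nek2, Ccnf, Hmmr, Pttg1, Cenpe, Kif23, Kif2c, Aurka and Mad2l1, from 7 of the 10 role groups. Without the IL27 array of suffix d at 72 h no member was called and the median was -0.09, though for Pttg1, Mad2l1, Cenpe, Hmmr, Nek2 and Kif2c the difference stayed between -0.39 and -0.47. Without all arrays of suffix d 7 members were called lower, among them Nek2, Mad2l1, Hmmr, Kif2c and Kif23 (adjusted p = 0.0178, 0.00291, 0.00407, 0.00699 and 0.00656). Without the ctrl array at 72 h 2 were called, without the ctrl array of suffix d at 72 h 5, without either array at 60 h 5, and without the IL27 array at 72 h that has no suffix 11. For these fits the share of all genes called is not given here.

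For Nek2 and 5 more genes the second difference and adjusted p are those without the IL27 array of suffix d at 72 h. Nek2, the kinase that lets centrosomes part, measured 78.0, 90.9 and 74.0 in ctrl at 60, 72 and 72 h and 64.1, 47.0 and 40.2 in the IL27 arm (-0.46 ± 0.13, adjusted p = 0.00891; -0.39 and 0.068 without). Ccnf, the cyclin F of a ubiquitin ligase, measured 151, 170 and 161 against 133, 133 and 93.1 (-0.35 ± 0.10, adjusted p = 0.0108; -0.21 and 0.181 without). Hmmr measured 768, 750 and 678 against 521, 527 and 459 (-0.52 ± 0.16, adjusted p = 0.0175; -0.47 and 0.0806 without). For each of these 3 genes all IL27 arrays were below all ctrl arrays.

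Pttg1 measured 3015, 2560 and 3254 against 2700, 1924 and 2118 (-0.39 ± 0.12, adjusted p = 0.0218; -0.40 and 0.0577 without), and here the IL27 value at 60 h lay above the ctrl value at 72 h. Its 2 other probe sets had -0.61 and 0.03. Cenpe measured 248, 275 and 321 against 226, 169 and 182 (-0.49 ± 0.15, adjusted p = 0.0233; -0.46 and 0.0826 without). Kif23 measured 421, 578 and 409 against 314, 391 and 278 (-0.47 ± 0.15, adjusted p = 0.028; -0.33 and 0.214 without). The groups did not overlap for Cenpe and Kif23. With the mean of all its probe sets Kif23 was not called (-0.23, adjusted p = 0.0555 by limma). Kif2c, a kinesin that takes microtubules apart, measured 712, 681 and 582 against 483, 494 and 412 (-0.48 ± 0.16, adjusted p = 0.0283). Aurka measured 650, 741 and 698 against 563, 597 and 460 (-0.35 ± 0.12, adjusted p = 0.0302), and Mad2l1 1655, 1638 and 1530 against 1187, 1156 and 1112 (-0.47 ± 0.16, adjusted p = 0.0405). All IL27 arrays were below all ctrl arrays for these 3 as well, and without the array their differences were -0.42, -0.23 and -0.45, none of them called (adjusted p = 0.125, 0.256 and 0.111).

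All IL27 arrays lay below all ctrl arrays for 14 of the 46 genes at 60 to 72 h, against 13% of all genes tested, and for none was the order the reverse. The 14 were Cdk1, Ccnf, Plk1, Aurka, Nek2, Ube2c, Mad2l1, Ttk, Cenpe, Kif20a, Kif23, Kif2c, Hmmr and Smc4. Cdk1 had the largest difference of all 46, with 1594, 1527 and 1584 in ctrl against 1148, 1180 and 913, and was not called (-0.53 ± 0.23, adjusted p = 0.108). The SE of a gene in this fit draws on its spread over all 52 HT_MG-430A arrays, the unlike ones of 20 h among them, and not on those of 60 to 72 h alone. Kif11, the motor that pushes spindle poles apart, had 592, 1180 and 586 against 496, 712 and 363 (-0.53 ± 0.25, adjusted p = 0.144), with the groups overlapping. Kif20a (-0.49 ± 0.18, adjusted p = 0.0519) and Ttk, a checkpoint kinase (-0.48 ± 0.19, adjusted p = 0.0729), were near the threshold.

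By role, the 6 kinesins had a median of -0.48, the 3 anaphase genes -0.39, the 4 checkpoint genes -0.38, the 3 mitotic kinases -0.35, the 7 entry genes -0.26, the 6 kinetochore genes -0.24, the 5 spindle proteins -0.22 and the 3 passenger genes -0.19. The 6 chromosome structure genes had -0.06 and the 3 cytokinesis genes -0.08, and none of these was called. Brightest of their groups, Birc5 had 1247, 1124 and 1101 in ctrl against 1352, 1520 and 754 (0.0036 ± 0.26, adjusted p = 0.994) and Racgap1 453, 688 and 519 against 460, 580 and 507 (-0.08 ± 0.15, adjusted p = 0.771). Kif22 had 1970, 2049 and 835 against 1437, 1926 and 1236, where the ctrl arrays spread more than the arms differ. Smc4 had 3624, 3887 and 2870 against 2833, 2866 and 2472 (-0.33 ± 0.17, adjusted p = 0.182).

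The replication genes had 14 of 49 called lower and none higher at 60 to 72 h (median -0.35), and the further mitosis genes 12 of 69 lower and none higher (median -0.18). On the same arrays the summed intensity of 6 T cell genes was 10100 to 12300 in ctrl and 12400 to 15200 in the IL27 arm. Of the lists of other cell types, the CD8 T cell genes (Cd8a near background, Cd8b1 above it) summed to 184 to 326 in ctrl and 130 to 151 in the IL27 arm, and 4 NK cell genes, of which Nkg7 makes up most and Ncr1 is near background, to 983 to 3200 and 2750 to 3440. Sums of 6 B cell genes (904 to 1230 and 788 to 1720, nearly all Ighm), 9 myeloid genes (131 to 148 and 135 to 142) and 3 erythroid genes (43.9 to 46.2 and 44.3 to 48.7) overlapped between the arms. The part of any of these in the members' differences was not tested.

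**Figure D5:**
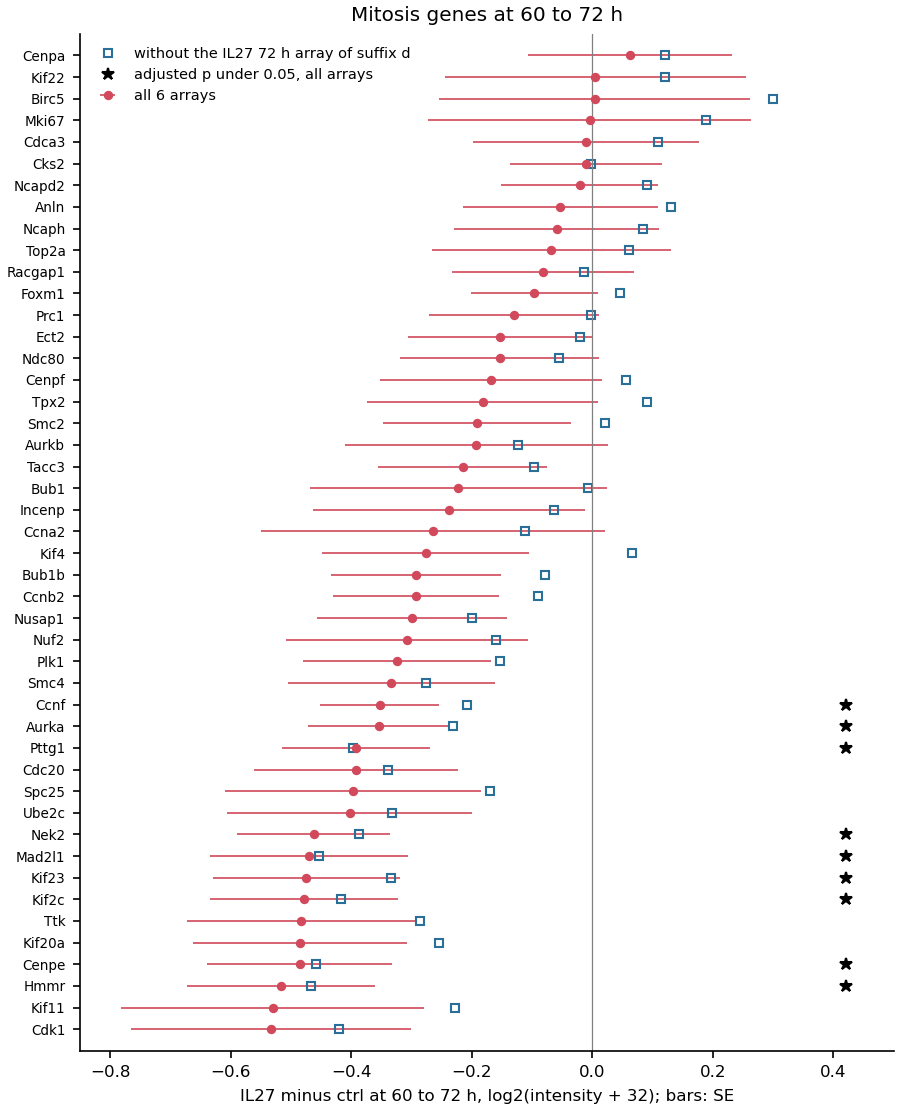
IL27 minus ctrl at 60 to 72 h for the 46 genes, sorted, on the log2(intensity + 32) scale: red points with bars of 1 SE for the fit with all 6 arrays, blue squares for the fit without the IL27 array of suffix d at 72 h, and stars for the 9 genes called with all arrays. Most squares lie to the right of their points, and none of the 46 is called without that array.

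The effect at 60 to 72 h was also set against that at 25 to 36 h. The change was below 0 for 43 of the 46 (median -0.21) and passed the test in 1, Pttg1, at -0.65 ± 0.16 (adjusted p = 0.0133), where 2.88% of all genes tested were called lower. All genes tested had medians of IL27 minus ctrl from -0.005 to 0.01 at the single times of 25 to 36 h. At 60 and 72 h these were -0.03 and -0.04. At 25 to 36 h every IL27 array lay above every ctrl array for 1 member, Pttg1, and for 437 of 7164 genes tested. The order was the reverse for 2 members, Kif11 and Kif23, and for 460 of all genes. Pttg1 at 25 to 36 h measured 1873, 2271, 1931 and 2019 in ctrl and 2472, 2484, 2406 and 2348 in the IL27 arm. By 72 h its order was turned. Without the 72 h arrays, or without the ctrl one of suffix d alone, it was no longer called (-0.42, adjusted p = 0.698, and -0.52, adjusted p = 0.0945), and the same held without the 25 h or the 30 h arrays (adjusted p = 0.0513 and 0.0915). The arrays of suffix d at 72 h were lower than the others of 72 h in the members, by a median of -0.21 in ctrl (40 of 46 genes) and -0.45 in the IL27 arm (44 of 46).

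The Mouse430A_2 arrays gave a like course at fewer times. Of the 46 members, 21 lay above the array median at 0 h, 15 and 13 at 4 h (ctrl and IL27), 32 and 29 at 16 h, and all 46 on each of the 4 arrays of 48 h. At 0 h the highest were Pttg1 (9492), Smc4 (8288), Incenp (917), Cks2 (580), Mad2l1 (547), Kif22 (528) and Cenpa (470), all well above the array median of 76.8. At 4 h in ctrl Cks2 was at 6112, Smc4 at 2259 and Cenpa at 142. Cdk1 went from 79.7 at 0 h to 812 at 16 h and 4569 at 48 h in ctrl, Ccnb2 from 148 to 66.3 and 3359, and Mki67 from 193 to 170 and 5625.

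Between the arms on these arrays, no member of the 33 that passed the filter and none of all 6478 genes tested was called (0% in either direction), by limma with time as a factor over 3 arrays per arm; 6 of the 33 members and 494 of all genes had an unadjusted p under 0.05. The difference was below 0 for 29 of the 33, with a median of -0.15 against -0.07 for all genes. Smc4 measured 2259, 3071 and 4669 in ctrl at 4, 16 and 48 h and 1371, 1861 and 4766 with IL-27 (-0.46 ± 0.16, adjusted p = 0.555). Cdk1 measured 95.1, 812 and 4569 against 49.8, 619 and 3663 (-0.44 ± 0.13, adjusted p = 0.429), and Mad2l1 311, 1309 and 4904 against 232, 1037 and 4356 (-0.29 ± 0.12, adjusted p = 0.646). Cdk1 and Mad2l1 were thus lower with IL-27 at each of the 3 times on these arrays, and Smc4 at 4 and 16 h. On HT_MG-430A, Mad2l1 was lower at all 3 of these times, and Cdk1 at 16 and 48 h only. There Cdk1 at 4 h was 19.77 with IL-27 against 16.35 in ctrl, both below the array medians. The GFPP and GFPN arrays of 48 h were close to each other in these genes, with a median intensity of 1510 and 1470 over the members, against 1470 in ctrl and 1390 with IL-27. Cdk1 had 3493 and 3285 there, Ccna2 3550 and 3419, and Mki67 8177 and 7329.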

How the data were processed

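The authors deposited linear intensity values, 1 per probe set and array; the submitters' processing notes name MAS5, with no version, and the HT_MG-430A and Mouse430A_2 arrays are kept apart because each type has its own scale. Probe sets were named through the platform tables: of 22626, 20173 had 1 gene symbol, 942 several and 1511 none, and only the first were used. Genes that exceeded the array median on fewer than 5 HT_MG-430A arrays (3 for Mouse430A_2) were left out. Log2(intensity + 32) was fitted with limma 3.58.1 (lmFit, eBayes with trend) in R 4.3.3; a log2 difference on this scale understates the change of dim genes. Time was a factor in the fits of IL27 minus ctrl, over 3 broad or 6 narrow windows, and the courses were fitted on the mean of each arm and window. P-values were adjusted by Benjamini-Hochberg over all genes tested, with 0.05 as the threshold, and errors are limma's standard errors. Tables and figures were made with Python 3.11.15, pandas 2.3.3, numpy 2.4.6 and matplotlib 3.10.9, and the fitting code was tested on simulated data. Every member may be named; values on each array are given for the 6 members with the smallest adjusted p among those called, per comparison and direction, and for the brightest member of each role group. The members, the other gene lists, the windows and the tests were chosen with earlier results of these data known. The title suffix d was not taken to pair arrays, since the labels do not explain it and the deviations of the suffixed arrays in the 2 arms, correlated at 7 of the 8 times (r = 0.228 to 0.757), were not so at 30 h (r = -0.013). Promoters are RefSeq's for GRCm38.p6.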

Additional observations from a re-analysis of the deposited data

Results flagged for a closer look

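The IL-27 effect on Pttg1 differed between 2 windows of time by a test of the difference itself: IL27 minus ctrl at 60 to 72 h less that at 25 to 36 h was -0.65 on the log2(intensity + 32) scale (limma, adjusted p = 0.0133). Pttg1 was higher in the IL27 arm on all 4 arrays of 25 to 36 h, an order that 437 of 7164 genes tested had. It was lower at both 60 h and 72 h when set against the ctrl array or arrays of the same time. Its 3 probe sets did not all have the same sign at 60 to 72 h (-0.39, -0.61 and 0.03).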

How the results depend on the processing

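The members' rise to 25 to 36 h was called in 43 to 45 genes in either arm under every alternative run, and no member called in the comparisons changed sign under an alternative that was run. Counts of members called between the arms were less stable. They are counts of members only, and the share of all genes called under each alternative is not given. A rise or fall in them may therefore not be particular to the members. Under the block on time and suffix described below, the standard error of Cdk1 at 60 to 72 h was 0.085 against 0.23 in the main fit. With a pseudocount of 1 the late window called 1, 60 to 72 h 2, and the IL27 course from 25 to 36 h to 60 to 72 h 2. With a pseudocount of 100 the change of the effect from 25 to 36 h to 60 to 72 h called 3. Without a filter on low values the middle and late windows called 1 each and that IL27 course 5. Quantile normalization left 1 in the late window, and the mean of all probe sets 1 in the late window and 2 for the change of the effect. Without the 12 h arrays, or (an alternative chosen after seeing the data) without the 12 h ctrl array alone, the middle window called 1, and in the first case 14 to 20 h called 2. Without the arrays of suffix d the counts were 8 in the middle window, 1 for late minus early, 3 at 14 to 20 h, 2 at 42 to 54 h, 0 for the change of the effect, and 2 for each late course. The mean of single-time contrasts called 0 in the late window.

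A replicate block on the suffix d gave 2 at 14 to 20 h and moved no other count by over 1.5 times. A replicate block on time and suffix together, which pairs the arms array by array and was chosen after seeing the data, gave 12 in the middle window, 6 in the late window, 1 for late minus early, 12 at 14 to 20 h, 3 at 42 to 54 h, 19 at 60 to 72 h (with Cdk1, Kif11, Ttk, Kif20a and Smc4 among them, adjusted p = 4.93e-05, 0.000269, 0.00388, 0.00765 and 0.0222) and 6 for the change of the effect; the labels do not say that the arrays are so paired. Leaving out 1 time or array in turn gave 0 calls in the early window, at 25 to 36 h, at 42 to 54 h and for late minus early, 1 to 6 in the middle window, 0 to 2 in the late window, 0 to 9 at 14 to 20 h, 0 to 11 at 60 to 72 h, 0 to 2 for the change of the effect, 31 to 40 for the first and 44 to 45 for the second ctrl interval, 1 to 5 for the third, 26 to 37, 45 and 1 to 7 for the IL27 intervals, and 0 to 1 on Mouse430A_2, where 1 was called without 48 h. With 3 arrays per arm at 60 to 72 h and 1 at 10 of the 18 times, differences of the size seen between arms rest on few arrays.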
